A study of Homo sapiens with 12 samples.

Results

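Iron handling and ferroptosis defence were followed through 9 genes, taken by symbol from a count table of 24302 features: TFRC, IREB2, FTH1, FTL, NCOA4, SLC40A1, HMOX1, SLC7A11 and GPX4. All 9 were found in the table, and 8 had enough reads to be tested among 14792 genes. SLC40A1, the iron exporter gene, had 0 counts in all 12 libraries. The RNA was that of KYSE150, an established cell line from a squamous carcinoma of the human esophagus, grown in RPMI medium with fetal bovine serum and antibiotics. The 4 groups of 3 libraries carried GFP alone (GFP), GFP-TFAP2β (WT), GFP-TFAP2β-Mut_IDR3 (Mut_IDR3) or GFP-TFAP2β-ΔIDR3 (dIDR3), so that every group holds a GFP construct. TFAP2β, encoded by TFAP2B, is one of the AP-2 transcription factors, IDR stands for an intrinsically disordered protein region, and the study calls both altered forms deficient in phase separation. The study asked which genes respond to TFAP2β and how far this depends on its condensates. How the constructs were delivered, and whether the cells were clones or pools, is not given in the sources used here.

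Cells take up iron bound to transferrin through the transferrin receptor and store it in ferritin, a shell of heavy and light chains. When iron is scarce, iron regulatory proteins bind short hairpins called iron-responsive elements (IREs), which stabilises the receptor mRNA and blocks translation of the ferritin mRNAs. Ferroptosis is a form of cell death driven by iron-dependent peroxidation of membrane lipids, held back by the glutathione peroxidase GPX4, whose glutathione is made from imported cystine.

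The IREs are printed because the post-transcriptional control of TFRC, FTH1, FTL and SLC40A1 runs through them. They were found in GENCODE v29 transcripts (GRCh38) as a C, 5 bases, a loop of 6 bases that reads CAGTGN or CAGAGN, and 5 bases that pair with the first 5, with G-T pairs allowed. TFRC held 5, all in its 3′ UTR in exon 19 of 19, on the minus strand of chromosome 3, and FTH1, FTL and SLC40A1 held 1 each in the 5′ UTR, in exon 1. Capitals mark the loop of 6 bases, written as DNA, 5′ to 3′.
TFRC, chr3:196051028-196051057: atttatcagtgaCAGAGTtcactataaatg
TFRC, chr3:196050978-196051007: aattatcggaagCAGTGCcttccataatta
TFRC, chr3:196050574-196050603: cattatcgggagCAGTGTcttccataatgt
TFRC, chr3:196050509-196050538: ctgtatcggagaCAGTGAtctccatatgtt
TFRC, chr3:196050462-196050491: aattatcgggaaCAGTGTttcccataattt
FTH1, chr11:61967573-61967602, minus strand: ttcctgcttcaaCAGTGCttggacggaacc
FTL, chr19:48965335-48965364, plus strand: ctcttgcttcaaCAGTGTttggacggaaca
SLC40A1, chr2:189580660-189580689, minus strand: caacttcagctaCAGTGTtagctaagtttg

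Of the 5 TFRC loops, 4 read CAGTGN and 1 read CAGAGN, and the loops of FTH1, FTL and SLC40A1 read CAGTGN. By this search 43 of 18210 genes (0.236%) held a match in the 5′ UTR and 195 of 18805 (1.04%) in the 3′ UTR, and 1 gene, TFRC, held 5 or more. HMOX1, SLC7A11, GPX4, NCOA4 and IREB2 held none. A match describes letters and is no measurement of binding.

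Libraries held 30.7 M to 43.5 M counts. Levels are counts scaled to library size (CPM, with TMM scaling), given for libraries 1, 2 and 3 in order, ± is the SD over 3 libraries, and log2 fold changes have a standard error (SE) and a Benjamini-Hochberg adjusted p from edgeR's quasi-likelihood test, called under 0.05. The labels do not say that the libraries of a group were separate cultures, so p-values measure the spread between these libraries, which may be technical. TFAP2B RNA was at 280 ± 45.6 CPM in WT, 702 ± 25.9 in Mut_IDR3 and 704 ± 62.8 in dIDR3, against 0.124 ± 0.142 in GFP. In both comparisons of a mutant with WT, the form of the protein and the amount of its RNA (log2 fold changes of 1.32 and 1.33) therefore cannot be told apart. The line's squamous and general epithelial markers were present in every group. They summed to 5151 to 5355 CPM for GFP, 6727 to 7801 for WT, 5243 to 5396 for Mut_IDR3 and 4446 to 4699 for dIDR3. KRT5 alone was at 2668 to 3709 CPM, and the sums hide wide ranges over the 12 libraries of KRT14 (45.2 to 865) and KRT17 (427 to 2565). SOX2 was near 0 in some libraries (0.0592 to 8.63 CPM). The part of these markers in the results was not tested. Markers of fibroblasts, leukocytes and endothelium summed to at most 1.8 CPM. Fold changes of all genes also followed the GC content of their transcripts, with a Spearman correlation over 12724 genes of 0.52 for WT against GFP, 0.44 for Mut_IDR3 against GFP, 0.2 for dIDR3 against GFP, -0.4 for Mut_IDR3 against WT and -0.45 for dIDR3 against WT. Between the mutants it was 0.26. Values with this trend removed are therefore given beside many of the results they move, and a result printed without one may move too. Why fold changes follow GC content was not tested.

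With WT, the RNAs of the transferrin receptor and of the cystine importer SLC7A11 fell, and those of both ferritin chains and of heme oxygenase 1 rose. TFRC fell 2.46-fold, IREB2 2.24-fold and SLC7A11 2.95-fold, and NCOA4 fell 1.25-fold. FTH1 rose 1.46-fold, FTL 1.47-fold, GPX4 1.36-fold and HMOX1 2.2-fold. In both mutants, as counted, TFRC, IREB2, NCOA4 and SLC7A11 were higher than with WT, and FTH1, FTL, HMOX1 and GPX4 were lower. The plot of levels by library shows the 4 groups for each gene.

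**Figure D1:**
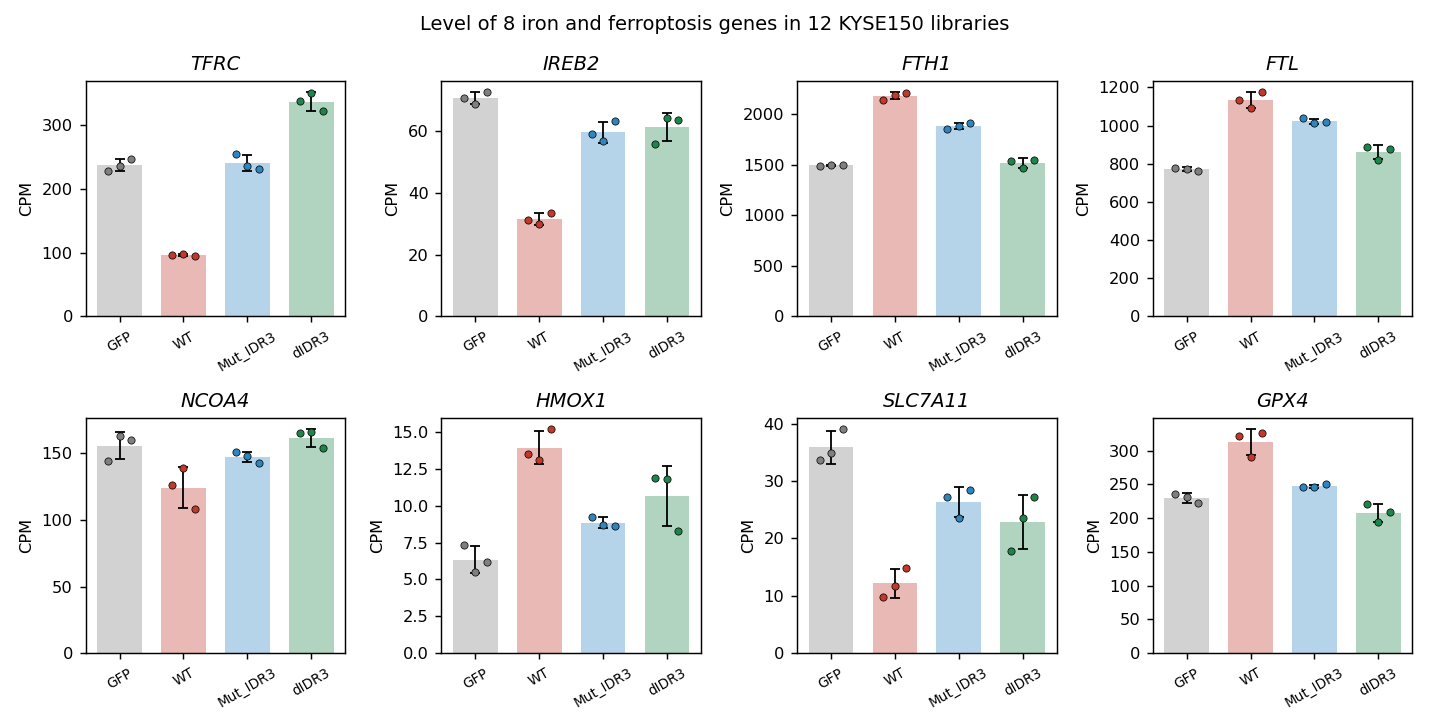
Level in CPM (y axes, from 0) of the 8 tested genes in the 4 groups (x axes). Bars are means, points are the 3 libraries and error bars are SDs; the WT points lie apart from the points of the other 3 groups in every panel.

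TFRC (ENSG00000072274, chromosome 3, 196027183 to 196082189, minus strand) encodes the transferrin receptor. It stood at 227, 236 and 246 CPM in the GFP libraries, 95.7, 97.5 and 95 with WT, 254, 235 and 230 with Mut_IDR3, and 337, 350 and 321 with dIDR3. The WT libraries were far below all others, the dIDR3 libraries above all others, and GFP and Mut_IDR3 overlapped. On the log2 scale WT differed from GFP by -1.30 (SE 0.05, adjusted p = 9.43e-11). Mut_IDR3 did not differ from GFP past the threshold (0.02, adjusted p = 0.845), whereas dIDR3 exceeded GFP by 0.51 (adjusted p = 6.63e-06). Mut_IDR3 exceeded WT by 1.32 (adjusted p = 8.32e-11) and dIDR3 exceeded it by 1.81 (adjusted p = 2.02e-12), which is 2.49-fold and 3.5-fold higher. Without the GC trend Mut_IDR3 passed the threshold against GFP (0.19, adjusted p = 0.0176). The increases of Mut_IDR3 and dIDR3 over WT were then 1.07 (adjusted p = 4.91e-10) and 1.49 (adjusted p = 1.15e-11). The libraries hold bulk RNA, so fewer cells with the transcript and less RNA per cell cannot be told apart.

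IREB2 (ENSG00000136381, chromosome 15, 78437431 to 78501456, plus strand) encodes iron regulatory protein 2, which binds IREs and is degraded when iron is plentiful. Its levels were 70.7, 68.7 and 72.6 CPM with GFP, 31.2, 29.9 and 33.6 with WT, 59, 56.7 and 63.2 with Mut_IDR3, and 56, 64.3 and 63.6 with dIDR3. WT was lowest without overlap, GFP was highest without overlap, and the mutants overlapped each other. WT against GFP gave -1.16 (SE 0.07, adjusted p = 1.07e-08), and the mutants exceeded WT by 0.92 (adjusted p = 1.92e-07) and 0.96 (adjusted p = 8.21e-08). Without the GC trend these became -0.49 (adjusted p = 2.15e-05), 0.52 (adjusted p = 1.55e-05) and 0.46 (adjusted p = 3.22e-05). Against GFP, Mut_IDR3 was at -0.24 (adjusted p = 0.0272) and dIDR3 at -0.21 (adjusted p = 0.0452); without the GC trend these values were 0.03 (adjusted p = 0.783) and -0.02 (adjusted p = 0.802). Each of these small differences was also lost without GFP replicate 1 (adjusted p = 0.0621 and 0.0796) or GFP replicate 3 (0.0898 and 0.104). It was lost without Mut_IDR3 replicate 1 (0.0632) or 2 (0.124) for Mut_IDR3, and without dIDR3 replicate 1 (0.149), WT replicate 1 (0.0569) or Mut_IDR3 replicate 2 (0.0553) or 3 (0.0545) for dIDR3. An antisense gene overlaps IREB2 and the strand setting of the counting is not given, so reads of the pair cannot be told apart.

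The partner of IREB2, ACO1, which encodes iron regulatory protein 1, went the other way by a small amount. It was at 30.2 ± 2.46 CPM with GFP and 34.9 ± 1.8 with WT (0.21, SE 0.08, adjusted p = 0.0464), a call lost under several alternatives and named after its values were seen. ACO1 was at 34.6 ± 1.04 CPM with Mut_IDR3 (0.20 against GFP, adjusted p = 0.107). With dIDR3 it was at 35.9 ± 2.75 CPM (0.25 against GFP, adjusted p = 0.0362, lost in 9 alternatives). Neither mutant differed from WT past the threshold (-0.01, adjusted p = 0.935, and 0.04, adjusted p = 0.712). The ratio of IREB2 to ACO1 counts was 2.35 ± 0.142 in GFP, 0.906 ± 0.0585 in WT, 1.72 ± 0.132 in Mut_IDR3 and 1.72 ± 0.247 in dIDR3. The WT ratios (0.849 to 0.966) lay below those of every other library. These ratios hold the GC trend: without it, IREB2 in WT against GFP went from -1.16 to -0.49 and ACO1 from 0.21 to 0.29.

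FTH1 (ENSG00000167996, chromosome 11, 61959718 to 61967660, minus strand) encodes the ferritin heavy chain, which oxidises iron for storage. Its libraries gave 1491, 1494 and 1498 CPM with GFP, 2143, 2193 and 2212 with WT, 1852, 1880 and 1913 with Mut_IDR3, and 1540, 1465 and 1552 with dIDR3. Both WT and Mut_IDR3 lay above GFP without overlap, Mut_IDR3 between WT and dIDR3, and dIDR3 overlapped GFP. The log2 fold changes against GFP were 0.55 (SE 0.04, adjusted p = 3.85e-08) in WT, 0.33 (adjusted p = 0.000132) in Mut_IDR3 and 0.02 (adjusted p = 0.698) in dIDR3. Against WT, FTH1 fell by 0.21 in Mut_IDR3 (adjusted p = 0.000487) and by 0.52 in dIDR3 (adjusted p = 6.71e-08). The first of these fell by 0.13 without the GC trend (adjusted p = 0.00468). BEST1 overlaps FTH1 on the opposite strand.

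FTL (ENSG00000087086, chromosome 19, 48965301 to 48966878, plus strand) encodes the ferritin light chain, which aids the formation of the iron core. It was at 779, 775 and 761 CPM with GFP, 1132, 1094 and 1175 with WT, 1039, 1014 and 1019 with Mut_IDR3, and 887, 821 and 880 with dIDR3. The groups stood in the order GFP, dIDR3, Mut_IDR3, WT with no overlap between neighbours. WT exceeded GFP by 0.56 (SE 0.04, adjusted p = 1.03e-07), Mut_IDR3 by 0.41 (adjusted p = 7.23e-05) and dIDR3 by 0.16 (adjusted p = 0.0135). Against WT, FTL fell by 0.15 in Mut_IDR3 (adjusted p = 0.0143) and by 0.39 in dIDR3 (adjusted p = 3.49e-06). With the GC trend removed the changes against GFP were 0.27 for WT (adjusted p = 1.22e-05), 0.27 for Mut_IDR3 (adjusted p = 0.000161) and 0.08 for dIDR3 (adjusted p = 0.0978), and those against WT were -0.00 (adjusted p = 0.983) and -0.20 (adjusted p = 0.000231). The call of dIDR3 against GFP was also lost without GFP replicate 2 (adjusted p = 0.0591), GFP replicate 3 (0.0755), dIDR3 replicate 1 (0.0821) or dIDR3 replicate 3 (0.0758). Both ferritin genes have processed pseudogenes in the genome, and how reads with several matches were counted is not given.

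As counted, the proportion of the heavy to the light chain moved little with WT and was lower in the mutants than in GFP. The ratio of FTH1 to FTL counts was 1.94 ± 0.028 in GFP, 1.93 ± 0.0678 in WT, 1.84 ± 0.05 in Mut_IDR3 (1.78 to 1.88) and 1.76 ± 0.0238 in dIDR3 (1.74 to 1.78), both below every GFP library (1.92 to 1.97), a range far narrower than that of FTH1 to TFRC. The latter was 6.33 ± 0.231 in GFP (6.1 to 6.56), 22.7 ± 0.493 in WT (22.4 to 23.3), 7.88 ± 0.527 in Mut_IDR3 (7.3 to 8.33) and 4.53 ± 0.324 in dIDR3 (4.19 to 4.83). The ratio of FTH1 to TFRC was therefore highest with WT and lowest with dIDR3, and no 2 groups overlapped. Between Mut_IDR3 and GFP, the log2 fold changes with the GC trend removed were 0.27 for FTH1 and 0.19 for TFRC, so little of that step in the ratio was left. Such ratios depend on no library scaling, but they hold the differences in GC content between FTH1 (50.1%), FTL (56.3%) and TFRC (41.5%). With the GC trend removed, FTH1 and FTL changed against GFP by 0.40 and 0.27 in WT. The values were 0.27 and 0.27 in Mut_IDR3, and -0.03 and 0.08 in dIDR3. The lower proportion in Mut_IDR3 was thus not left, and FTH1 rose more than FTL with WT.

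NCOA4 (ENSG00000266412, chromosome 10, 46005088 to 46030714, minus strand) encodes the receptor that carries ferritin to the lysosome for iron release. Its levels were 144, 163 and 160 CPM with GFP, 126, 139 and 108 with WT, 151, 148 and 143 with Mut_IDR3, and 165, 166 and 154 with dIDR3. WT was lowest, without overlap but with a wide spread, and GFP overlapped both mutants. WT against GFP gave -0.32 (SE 0.08, adjusted p = 0.00222), and the mutants exceeded WT by 0.25 (adjusted p = 0.0175) and 0.38 (adjusted p = 0.00072). The first of these was 0.15 without WT replicate 3 (adjusted p = 0.0716), and it was not called without Mut_IDR3 replicate 1 (0.0807) or when those 2 groups were fitted alone (0.066). Neither mutant differed from GFP past the threshold (-0.08, adjusted p = 0.518, and 0.06, adjusted p = 0.628).

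SLC40A1 (ENSG00000138449, chromosome 2, 189560579 to 189583758, minus strand) encodes ferroportin, the exporter of iron from cells. It had 0 counts in each library, which allows a level of up to 0.0693 to 0.0964 CPM per library at 3 counts, a limit for counting error only. No change of SLC40A1 could be measured at this depth.

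HMOX1 (ENSG00000100292, chromosome 22, 35380361 to 35394214, plus strand) encodes heme oxygenase 1, which breaks heme down and releases its iron. Its libraries gave 7.3, 5.52 and 6.19 CPM with GFP, 13.5, 13.1 and 15.2 with WT, 9.26, 8.68 and 8.61 with Mut_IDR3, and 11.9, 11.8 and 8.3 with dIDR3. WT was highest and GFP lowest, both without overlap, and dIDR3 replicate 3 lay below the Mut_IDR3 libraries while the other dIDR3 libraries lay above them. The increase over GFP was 1.14 (SE 0.15, adjusted p = 1.24e-05) in WT, 0.48 (adjusted p = 0.0331) in Mut_IDR3 and 0.75 (adjusted p = 0.00159) in dIDR3. Against WT, HMOX1 fell by 0.66 in Mut_IDR3 (adjusted p = 0.00201, and -0.47 without the GC trend) and by 0.38 in dIDR3 (SE 0.14, adjusted p = 0.0362). The last value was -0.25 without dIDR3 replicate 3 (adjusted p = 0.135) and -0.14 without the GC trend (adjusted p = 0.418), and it was also not called without WT replicate 1 (0.059) or WT replicate 3 (0.117). The increase in Mut_IDR3 over GFP was not called without the GC trend (0.33, adjusted p = 0.123), by limma-voom (0.0507), or without GFP replicate 2 (0.131) or 3 (0.107) or Mut_IDR3 replicate 1 (0.0938), 2 (0.0789) or 3 (0.0649).

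SLC7A11 (ENSG00000151012, chromosome 4, 138164097 to 138242349, minus strand) encodes xCT, the light chain of an antiporter that brings in cystine for glutathione. It was at 33.7, 34.9 and 39.1 CPM with GFP, 9.86, 11.7 and 14.9 with WT, 27.2, 23.5 and 28.4 with Mut_IDR3, and 17.9, 23.5 and 27.2 with dIDR3. WT lay below and GFP above all the other libraries, and the mutants overlapped. WT against GFP gave -1.56 (SE 0.16, adjusted p = 1.01e-06), as counted the fold change farthest from 0 among the 8 genes in that comparison. Without the GC trend it was -0.87 (adjusted p = 2.41e-05), beside -0.88 for TFRC. The mutants exceeded WT by 1.12 (adjusted p = 4.61e-05) and 0.91 (adjusted p = 0.000175), or by 0.74 (adjusted p = 0.000133) and 0.43 (adjusted p = 0.00683) without the trend. Relative to GFP, Mut_IDR3 was at -0.44 (adjusted p = 0.0498) and dIDR3 at -0.65 (adjusted p = 0.00507). The dIDR3 value was -0.44 without the GC trend (adjusted p = 0.00776). The Mut_IDR3 value sat at the threshold: it was -0.12 without the GC trend (adjusted p = 0.505), and it was not called without GFP replicate 1 (0.0689), 2 (0.0825) or 3 (0.157), Mut_IDR3 replicate 1 (0.0905), 2 (0.183) or 3 (0.0708), or dIDR3 replicate 2 (0.0592). SLC7A11-AS1 overlaps the gene on the opposite strand.

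GPX4 (ENSG00000167468, chromosome 19, 1103926 to 1106791, plus strand) encodes the selenoenzyme that reduces lipid peroxides in membranes. It stood at 236, 232 and 222 CPM with GFP, 322, 291 and 326 with WT, 246, 246 and 250 with Mut_IDR3, and 221, 194 and 209 with dIDR3. The 4 groups followed the order dIDR3, GFP, Mut_IDR3, WT with no overlap. WT exceeded GFP by 0.45 (SE 0.06, adjusted p = 9.97e-06), and Mut_IDR3 and dIDR3 fell below WT by 0.34 (adjusted p = 0.00021) and 0.59 (adjusted p = 7.63e-07). Without the GC trend these values were 0.12 (adjusted p = 0.0276), -0.12 (adjusted p = 0.0265) and -0.28 (adjusted p = 5.12e-05). Neither mutant differed from GFP past the threshold, with Mut_IDR3 at 0.10 (adjusted p = 0.209) and dIDR3 at -0.14 (adjusted p = 0.0697). The dIDR3 decrease was called by DESeq2 (adjusted p = 0.0321) and without the GC trend (-0.16, adjusted p = 0.00719).

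**Figure D2:**
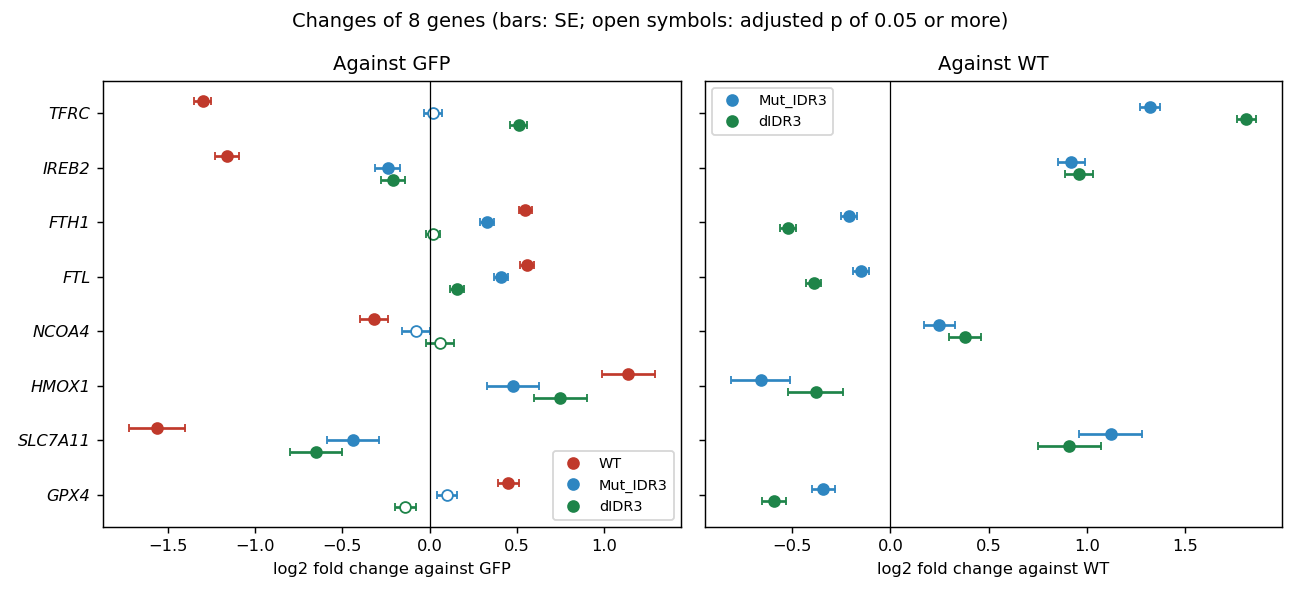
Log2 fold change (x axes) of the 8 tested genes (y axis) for WT, Mut_IDR3 and dIDR3 against GFP on the left and for both mutants against WT on the right. Bars are SEs and open symbols have an adjusted p of 0.05 or more; in the right panel TFRC, IREB2, NCOA4 and SLC7A11 lie above 0 and the other 4 genes below 0, with TFRC reaching 1.81 in dIDR3.

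All 8 tested genes were called in WT against GFP, 4 higher and 4 lower, where 54.9% of all tested genes were called (27.7% higher and 27.1% lower). Their libraries did not overlap between the groups in 8 of 8 genes, against 59.4% of all genes. A call was thus common in this comparison. The share of all tested genes that changed further in the same direction was 2.76% for SLC7A11, 4.56% for TFRC, 4.69% for HMOX1 and 6.27% for IREB2, but 14.7% for FTL, 15.1% for FTH1, 19.9% for GPX4 and 32.3% for NCOA4. The median fold change of the 8 was 0.06 on the log2 scale and that of all genes -0.01, with 4 genes on each side of 0.

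In Mut_IDR3 against GFP 5 of the 8 were called, 3 higher (FTH1, FTL, HMOX1) and 2 lower (IREB2, SLC7A11). Of all genes 21.1% were called (11.2% higher and 9.85% lower), and 43.5% had no overlap between groups, as did 6 of the 8. The calls of IREB2, SLC7A11 and HMOX1 did not hold without the GC trend, where TFRC, FTH1 and FTL were called. In dIDR3 against GFP 5 were called, 3 higher (TFRC, FTL, HMOX1) and 2 lower (IREB2, SLC7A11), where 29.0% of all genes were called (15.6% higher and 13.4% lower). The groups did not overlap in 6 of the 8, against 47.0% of all genes. These comparisons and that of WT share the GFP libraries.

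Against WT all 8 were called in each mutant, with TFRC, IREB2, NCOA4 and SLC7A11 higher and FTH1, FTL, HMOX1 and GPX4 lower. Without the GC trend 7 of the 8 were called in each. The calls lost were FTL in Mut_IDR3 (-0.00, adjusted p = 0.983) and HMOX1 in dIDR3 (-0.14, adjusted p = 0.418). The background was 44.1% of all genes in Mut_IDR3 against WT (23.2% higher and 20.9% lower) and 52.3% in dIDR3 against WT (27.2% higher and 25.0% lower). All 8 had groups that did not overlap in both comparisons, against 50.7% and 55.6% of all genes. Both comparisons share the WT libraries with each other and with WT against GFP, so their directions are not independent.

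The mutants themselves differed in 4 of the 8 genes, where 10.8% of all genes were called (5.54% higher and 5.24% lower in Mut_IDR3). FTH1 (0.31, adjusted p = 0.00025), FTL (0.25, adjusted p = 0.00294) and GPX4 (0.25, adjusted p = 0.0123; 0.16 without the GC trend) were higher in Mut_IDR3 than in dIDR3, and TFRC was lower (-0.49, SE 0.05, adjusted p = 5.82e-05). For TFRC, FTH1, FTL and GPX4 the 3 Mut_IDR3 libraries did not overlap the 3 dIDR3 libraries, and NCOA4 also did not overlap; over all genes 34.3% did not. TFAP2B RNA differed between the mutants by -0.01 (SE 0.11, adjusted p = 0.989). IREB2 (-0.04, adjusted p = 0.793), NCOA4 (-0.13, adjusted p = 0.293), HMOX1 (-0.27, adjusted p = 0.262) and SLC7A11 (0.20, adjusted p = 0.437) did not pass the threshold. SLC7A11 was called with the GC trend removed and the replicate number as a block (0.32, adjusted p = 0.0292), though not with the trend removed alone (adjusted p = 0.0786). The 4 called genes stayed called under each of the 22 alternatives, single libraries left out included.

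Per length, the ferritin RNAs were by far the most abundant of the 8 in GFP cells. CPM per kilobase of the principal transcript was 1216 for FTH1, 879 for FTL, 250 for GPX4, 67.4 for NCOA4, 46.2 for TFRC, 11.1 for IREB2, 3.72 for SLC7A11 and 3.48 for HMOX1. With WT the order changed at its lower end, where HMOX1 (7.64) stood above IREB2 (4.97) and SLC7A11 (1.26). SLC7A11 and HMOX1 could not be ranked beyond their spread in GFP (SDs of 0.294 and 0.492).

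The genes that fell and those that rose with WT also differed in base composition. Transcript GC content was 35.4% for SLC7A11, 38.3% for IREB2, 41.5% for TFRC and 46.7% for NCOA4, and 50.1% for FTH1, 56.3% for FTL, 58.1% for HMOX1 and 63% for GPX4. The median of tested genes was 49.7% (quartiles 42.7% and 57.7%), so every gene that fell lay below it and every gene that rose lay above it. Removing the GC trend shrank all 8 changes of WT against GFP and left each called with its direction: TFRC became -0.88 (adjusted p = 3.61e-09), FTH1 0.40 (adjusted p = 1.89e-07), HMOX1 0.80 (adjusted p = 0.000234) and NCOA4 -0.29 (adjusted p = 0.000894). Across all 22 alternatives the WT change ranged from -1.32 to -0.88 for TFRC, from -1.21 to -0.49 for IREB2, from -1.74 to -0.87 for SLC7A11, from 0.80 to 1.26 for HMOX1, from 0.40 to 0.56 for FTH1 and from 0.12 to 0.50 for GPX4.

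**Figure D3:**
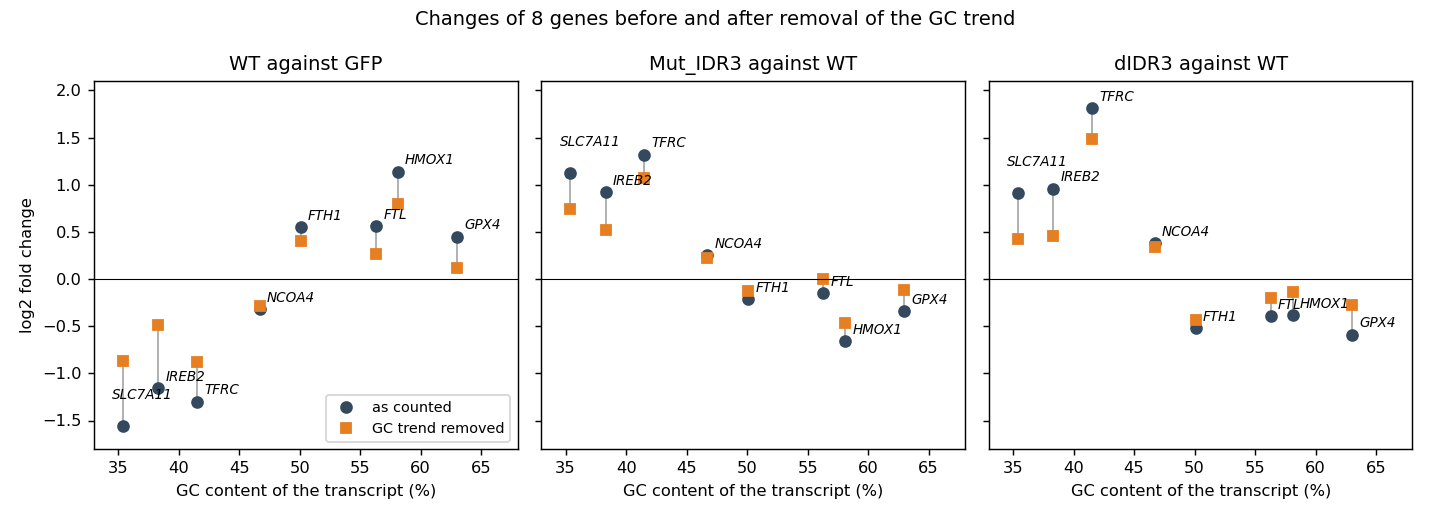
Log2 fold change (y axes) against the GC content of the transcript (x axes, percent) for the 8 tested genes in WT against GFP, Mut_IDR3 against WT and dIDR3 against WT. Circles are values as counted and squares values with the GC trend of all genes removed; in WT against GFP the squares lie nearer 0 than the circles for all 8 genes, and TFRC stays at -0.88.

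AP-2 factors bind the motif GCCNNNGGC, which reads the same on both strands and was searched in RefSeq promoter windows (GRCh38.p14) of 250 bases before to 50 after each start. Of the 9 genes, 6 were matched in that table: TFRC, FTL, SLC40A1, GPX4, NCOA4 and IREB2. The motif was present in windows of TFRC, FTL, SLC40A1 and GPX4, and its first base lay 52 bases before the start in TFRC, 110 in FTL, 9 in SLC40A1 and 38 in a GPX4 window. Over all promoters 23.2% of 35116 held it, so that a match is common, and no binding was measured here. The sites of a gene that fell with WT (TFRC) and of 2 that rose (FTL and GPX4) are printed with the motif in capitals.
TFRC, chr3:196082124-196082153, minus strand: cccccctggggGCCGGGGGCggggccaggc
FTL, chr19:48965188-48965217, plus strand: ggtcaggcacgGCCTTCGGCcccgcctcct
GPX4, chr19:1104008-1104037, plus strand: cgaggggaggaGCCGCTGGCtcccagcccc

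The tested genes with the motif, TFRC, FTL and GPX4, did not share a direction with WT. FTH1, HMOX1 and SLC7A11 had no window to search. Whether the motif has a part in these changes was not tested. The core of the antioxidant response element, TGACNNNGC, searched on both strands, was in 13.3% of all promoters and in 1 window of NCOA4. The windows of IREB2 held neither motif.

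The genes whose levels over the 12 libraries were most like those of TFRC were MCM6 (r = 0.995), DHX9 (0.994) and WDR3 (0.990), by Pearson correlation of log2 CPM among 9061 genes. MCM6, a subunit of the replicative helicase, was at 146 CPM in GFP, 82.1 in WT, 151 in Mut_IDR3 and 181 in dIDR3. FTH1 was followed most closely by VEGFB (0.981), MAP2K1 (0.979) and NDUFB11 (0.978), and HMOX1 by GALNT14 (0.974), ZNF777 (0.965) and TUBB2A (0.963). These correlations describe 12 libraries in 4 groups that share the differences between groups, and the GC trend was not removed from them. With it removed, WDR3 in WT against GFP went from -0.60 to 0.02 (edgeR adjusted p = 0.855) and VEGFB from 0.49 to 0.18 (adjusted p = 0.0581). The other genes named here stayed called.

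Of 132 other genes of iron, heme, glutathione, NRF2 and ferroptosis, 115 were tested. In WT against GFP 41 rose and 29 fell, which is 60.9% called against 54.9% of all genes, with a median log2 fold change of 0.09. Among 10 tested genes of iron uptake and sensing, 4 rose and 2 fell (60.0% called). SLC39A14 (104 ± 3.58 to 141 ± 4.26 CPM, 0.44, adjusted p = 3.92e-06) and SLC39A8 (10.2 ± 0.657 to 18 ± 2.39 CPM, 0.82, adjusted p = 2.02e-05), zinc and iron importers of the ZIP family, rose. The endosomal ferrireductase gene STEAP3 fell from 65.1 ± 1.36 to 45.6 ± 2.84 CPM (-0.51, adjusted p = 7.43e-06; -0.80 without the GC trend). HFE, whose product binds the transferrin receptor, fell from 52.2 ± 1.88 to 34.6 ± 2.26 CPM (-0.60, adjusted p = 2.49e-05; -0.27 without the trend). Uptake genes thus did not move as a block: these ZIP importers rose, TFRC and STEAP3 fell, and 4 of the 10 did not pass the threshold. SLC11A2, also an iron carrier, was among those 4 (-0.00, adjusted p = 0.976), while STEAP1, a relative of STEAP3, rose (0.43, adjusted p = 0.0404). Both were named after their values were seen.

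STEAP3 was higher than WT in both mutants (0.74, adjusted p = 3.9e-07, and 0.68, adjusted p = 5.1e-07), as was TFRC. SLC39A14 was at 140 ± 4.24 and 143 ± 5.43 CPM in them, with changes against WT of -0.01 (adjusted p = 0.897) and 0.03 (adjusted p = 0.696). Of 4 tested genes of storage, iron chaperones and export, 2 rose, both of them iron chaperones of ferritin. PCBP1 went from 364 ± 13.3 to 469 ± 2.15 CPM (0.37, adjusted p = 3.48e-06), not called without the GC trend (0.10, adjusted p = 0.0597), and PCBP2 from 559 ± 8.39 to 693 ± 14.9 CPM (0.31, adjusted p = 8.46e-06; 0.19 without the trend). HERC2, an E3 ligase that targets NCOA4, did not pass the threshold (0.10, adjusted p = 0.261), nor did HEPHL1, a ferroxidase gene (0.51, adjusted p = 0.677, below 1 CPM in every group).

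In heme synthesis, transport and breakdown 5 of 15 tested genes rose and 2 fell with WT (46.7% called, against 54.9% of all genes). ALAS1, the rate-limiting enzyme of heme synthesis outside red cells, rose from 64 ± 1.44 to 101 ± 5.3 CPM (0.66, adjusted p = 8.81e-07), and it was lower than WT in Mut_IDR3 (-0.41, adjusted p = 0.000151) and dIDR3 (-0.41, adjusted p = 9.95e-05). The heme exporter gene FLVCR1 fell from 69.9 ± 2.72 to 43 ± 3.3 CPM (-0.70, adjusted p = 6.27e-07; -0.38 without the GC trend). HMOX2, the constitutive relative of HMOX1, and UROD, an enzyme of heme synthesis, rose by 0.23 (adjusted p = 0.000706) and 0.32 (adjusted p = 0.00015), and neither was called without the GC trend (adjusted p = 0.286 and 0.337).

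Of 18 tested genes of mitochondrial iron and iron-sulfur clusters 9 rose and 2 fell with WT, with a median of 0.28. That is 61.1% called, against 54.9% of all genes (27.7% higher and 27.1% lower). The mitochondrial iron importer gene SLC25A37 rose from 35.2 ± 2.54 to 62.3 ± 1.48 CPM (0.82, adjusted p = 1.56e-07) and was at 38.8 ± 0.351 and 38.1 ± 1.23 CPM in the mutants. NFS1, the cysteine desulfurase of cluster assembly, rose from 109 ± 2.63 to 155 ± 9.71 CPM (0.51, adjusted p = 5.56e-06). GLRX5, which hands clusters on, rose by 0.36 (adjusted p = 2.56e-05), not called without the GC trend (0.11, adjusted p = 0.0573).

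Cystine and glutathione genes split, with 3 of 10 higher and 4 lower in WT than GFP (70.0% called, against 54.9% of all genes). SLC3A2, the heavy chain that pairs with SLC7A11 in the antiporter, fell from 1176 ± 17.3 to 952 ± 81.1 CPM (-0.30, adjusted p = 0.000308, and -0.64 without the GC trend). GCLC, the catalytic subunit of glutathione synthesis, fell from 119 ± 4.76 to 71.8 ± 3.21 CPM (-0.73, adjusted p = 1.53e-07), and GSR, glutathione reductase, by 0.34 (adjusted p = 3.45e-05). The glutamine carrier gene SLC1A5 rose by 0.38 (adjusted p = 7.07e-05), not called without the trend (0.05, adjusted p = 0.225). SLC3A2 and GCLC were higher than WT in both mutants, by 0.42 and 0.30 in Mut_IDR3 (adjusted p = 3.45e-05 and 0.00106) and by 0.23 and 0.39 in dIDR3 (adjusted p = 0.00302 and 7.32e-05). Without the trend these were 0.61 and 0.17 in Mut_IDR3 and 0.48 and 0.22 in dIDR3, all still called. Between the mutants, 7 of these 10 genes were higher in Mut_IDR3 and 0 lower, where 5.54% of all genes were higher and 5.24% lower. The call of SLC3A2 among them (0.19, adjusted p = 0.0492) was lost in 8 alternatives.

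Among 20 other genes of ferroptosis defence and selenoprotein synthesis 4 rose and 8 fell with WT (60.0% called, against 54.9% of all genes). AIFM2, which encodes the ubiquinone reductase FSP1, rose from 59.4 ± 5.8 to 99.7 ± 7.9 CPM (0.75, adjusted p = 1.25e-06; 0.47 without the GC trend). It was lower than WT in Mut_IDR3 (-0.53, adjusted p = 5.58e-05) and dIDR3 (-0.51, adjusted p = 5.28e-05), or by -0.39 and -0.31 without the trend. SCD, which makes monounsaturated fatty acids, fell from 1116 ± 10.4 to 863 ± 23 CPM (-0.37, adjusted p = 1.77e-06). MBOAT2, a phospholipid acyltransferase, fell by 0.85 (adjusted p = 7.22e-08; -0.21 without the trend), and TRIT1, a tRNA modifier needed for selenoproteins, by 0.56 (adjusted p = 1.45e-05).

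Of 15 tested genes of lipid peroxidation and ferroptosis drivers 5 rose and 5 fell with WT (66.7% called, against 54.9% of all genes). Both ether lipid enzymes among the named genes fell: FAR1 from 74 ± 6.69 to 28 ± 3.87 CPM (-1.40, adjusted p = 7.71e-08; -0.71 without the GC trend) and AGPS from 92.5 ± 4.94 to 46.5 ± 2.85 CPM (-0.99, adjusted p = 1.59e-08; -0.31 without the trend). CYB5R1, an oxidoreductase that promotes lipid peroxidation, rose from 15.1 ± 0.521 to 38.4 ± 3.59 CPM (1.35, adjusted p = 2.99e-08) and was at 16.4 ± 1.03 and 15.9 ± 1.48 CPM in the mutants. VDAC2, a channel of the outer mitochondrial membrane, rose by 0.35 (adjusted p = 7.78e-05).

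All 8 genes that regulate NRF2 and BACH1 programmes were called in WT against GFP, 5 higher and 3 lower, where 54.9% of all genes were called. NFE2L2, which encodes NRF2, the activator of HMOX1, SLC7A11, FTH1 and FTL, fell from 124 ± 4.51 to 65.3 ± 5.9 CPM (-0.93, adjusted p = 5.69e-08). BACH1, the repressor of HMOX1, fell from 22.2 ± 1.8 to 13.6 ± 0.115 CPM (-0.71, adjusted p = 6.92e-06), and was at -0.05 without the GC trend (adjusted p = 0.671); it was named after its values were seen. The small MAF partners rose: MAFF from 13.9 ± 1.75 to 68.5 ± 4.63 CPM (2.30, SE 0.10, adjusted p = 2.04e-10) and MAFK from 47.5 ± 0.896 to 95.1 ± 6.73 CPM (1.00, adjusted p = 5.03e-08). MAFF stood at 14 ± 0.997 and 14 ± 0.858 CPM in the mutants. SQSTM1, an adaptor that binds the NRF2 inhibitor KEAP1, rose by 0.54 (adjusted p = 4.16e-07; 0.20 without the trend) and was not called in either mutant against WT, though it was in dIDR3 without the trend (0.23, adjusted p = 0.000115).

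Other NRF2 targets showed little in common with WT, with 2 higher and 2 lower of 11 (36.4% called, against 54.9% of all genes). GPX2 fell from 1.85 ± 0.245 to 0.298 ± 0.077 CPM (-2.63, SE 0.44, adjusted p = 0.000113), and OSGIN1 rose from 5.92 ± 0.19 to 10.3 ± 1.34 CPM (0.80, adjusted p = 0.000196; 0.47 without the GC trend). The pentose phosphate gene TKT was at -0.26 (adjusted p = 0.000506) and TALDO1 at 0.18 (adjusted p = 0.00688). Without the trend both were below 0, TKT at -0.60 and TALDO1 at -0.10, the latter not called (adjusted p = 0.0786). HMOX1 and SLC7A11, both described targets of NRF2, likewise moved in opposite directions with WT.

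Of 4 tested genes with other described IREs, 2 rose and 1 fell. CDC42BPA, described with an IRE in its 3′ UTR, fell from 13.9 ± 2.05 to 6.1 ± 2.78 CPM (-1.18, SE 0.23, adjusted p = 0.00041). EPAS1, described with an IRE in its 5′ UTR, was called at 0.20 (adjusted p = 0.044), a call lost in 11 alternatives. CDC14A did not pass the threshold (0.03, adjusted p = 0.892).

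In the mutants fewer of the 115 listed genes were called against GFP. There were 20 higher and 13 lower with Mut_IDR3 (28.7% against 21.1% of all genes) and 26 higher and 22 lower with dIDR3 (41.7% against 29.0%). Against WT, 30 were higher and 25 lower in Mut_IDR3 (47.8% against 44.1%) and 28 higher and 34 lower in dIDR3 (53.9% against 52.3%), both near the share of all genes. Between the mutants 19 were higher and 7 lower in Mut_IDR3 (22.6% against 10.8%).

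**Figure D4:**
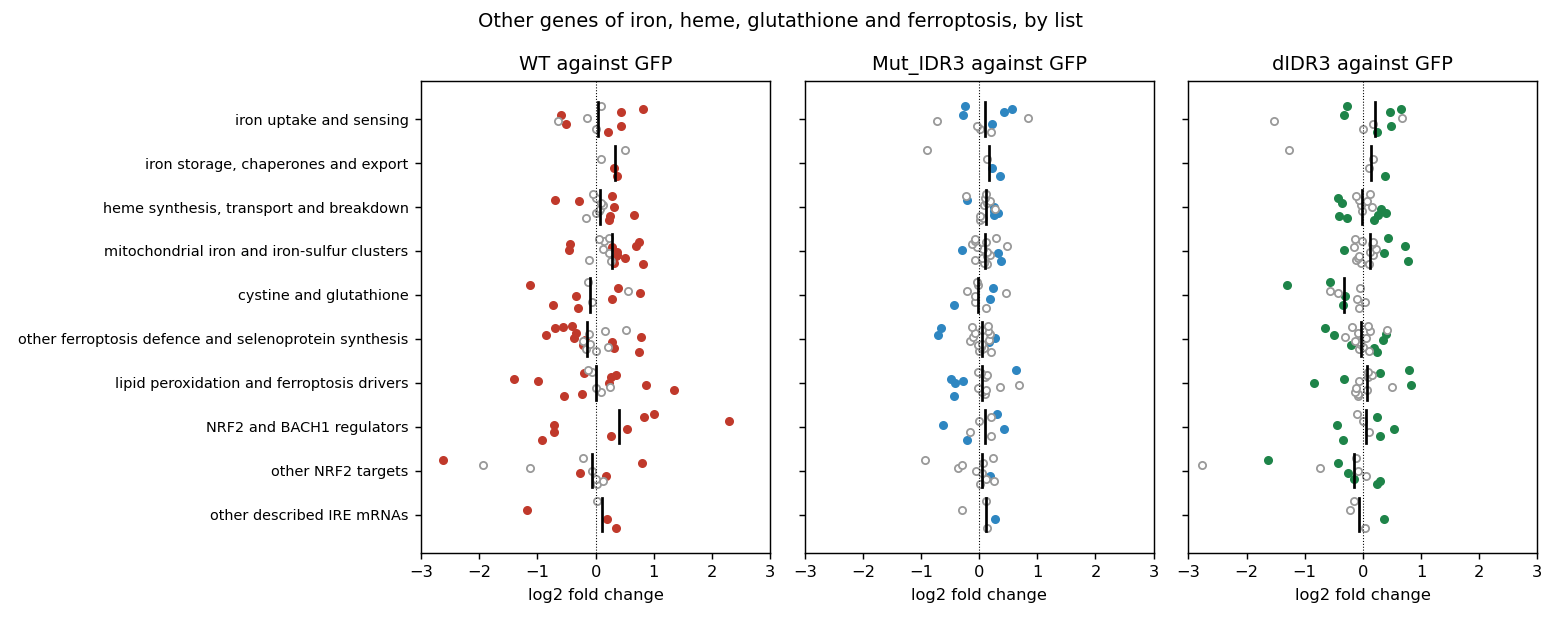
Log2 fold change (x axes) of each of the 115 listed genes, by list (y axis), for WT, Mut_IDR3 and dIDR3 against GFP. Filled points were called, open points were not and black bars are the lists' medians; most lists hold points on both sides of 0, with medians between -0.32 and 0.40.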

How the data were processed

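Per the labels' protocols, the 12 KYSE150 libraries were built with a SMARTer mRNA kit from 1 µg of total RNA isolated by RNeasy columns. The submitters' processing notes name Trim Galore, HISAT2, StringTie and the GRCh38/hg38 build, without versions. The counting program, annotation, strand setting and treatment of reads with several matches are not given in the sources used here. The deposited values are whole read counts per gene, and 4328 of the 24302 features are unnamed.

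The quasi-likelihood F test of edgeR was fitted to all 4 groups together (8 residual degrees of freedom) after filterByExpr by group and TMM scaling. The p-values were adjusted by Benjamini-Hochberg over 14792 genes, and genes were called under 0.05. Correlations between genes used log2 CPM with a prior count of 2. With 3 libraries against 3, an exact test of a single gene cannot go below p = 0.1. The GC trend was removed with offsets from 20 GC bins, built from genes averaging 1 CPM or more and the GC content of the principal coding transcript in GENCODE v29. The tools were edgeR 4.0.16, DESeq2 1.42.0 and limma 3.58.1 under R 4.3.3. The code was checked on simulated counts.

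The 9 genes, the lists and the alternatives were chosen with earlier results of these data known. Up to 4 genes of each list with the lowest adjusted p in WT against GFP are named, and 3 genes most like each of TFRC, FTH1 and HMOX1; a few results of single genes are not reported here. Libraries of a group differed by more than sampling noise (chi-square per degree of freedom of 8.54 to 37.2), so none was counted as a repeat of another. Alternatives were 2 other scalings, 2 other filters, DESeq2, limma-voom, the 2 groups alone, the replicate number, the GC trend, and each library left out.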

Additional observations from a re-analysis of the deposited data

How the results depend on the processing

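Of 22 alternatives, each recomputed for 48 results of single genes, 16 values changed sign, 45 others lost a call, 12 others gained one and 983 did none of these. In WT against GFP all 8 genes kept direction and call under all 22. With the GC trend removed, 3 of 8 genes were called in Mut_IDR3 against GFP instead of 5, and 3 with the replicate block as well; the listed genes called there fell from 33 to 20 with the block and GC removal together, and all genes from 3114 to 1944. With single libraries left out, Mut_IDR3 against GFP gave 2 to 5 of the 8 genes, 17 to 42 listed genes and 1566 to 3796 of all genes. The lowest of these counts came without GFP replicate 3 or without Mut_IDR3 replicate 1 or 2. In dIDR3 against GFP single leave-outs gave 3 to 6 of the 8, with 3 without GFP replicate 3. Between the mutants they gave 16 to 32 listed genes against 26 and 819 to 2265 of all genes against 1594.

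Of the values that changed sign, that of IREB2 in Mut_IDR3 against GFP had been called (-0.24) and lost its call, and no other had been called. TFRC in Mut_IDR3 against GFP ran from -0.03 to 0.05 over single leave-outs, below 0 without GFP replicate 1 (-0.01) or Mut_IDR3 replicate 1. With the GC trend removed, with or without the block, IREB2 became 0.03 and GPX4 -0.00 in Mut_IDR3 against GFP, FTH1 -0.03 in dIDR3 against GFP, and IREB2 0.06 in Mut_IDR3 against dIDR3, where single leave-outs ran from -0.09 to 0.00, the latter without dIDR3 replicate 2. FTH1 in dIDR3 against GFP was also -0.00 under upper-quartile scaling, with the filter of 1 CPM and without dIDR3 replicate 1, and -0.01 without dIDR3 replicate 3. NCOA4 there ran from -0.01, without GFP replicate 1, to 0.07.

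The replicate numbers shared by the groups did not pair the libraries: correlations of deviations between same-numbered libraries ran from -0.068 to 0.076. The replicate block gave 7932 calls over all genes in WT against GFP against 8118 and 1206 between the mutants against 1594, and with the block alone no call of the 8 genes changed. Depth limits SLC40A1, at 0 counts.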

Other observations

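Metallothioneins and further selenoproteins were looked at after the data were seen, as neighbours of GPX4 and of metal handling. Of 9 metallothionein genes, small proteins that bind zinc and copper, 4 were tested and 3 rose with WT, where 27.7% of all genes rose. MT2A went from 985 ± 34.9 to 1949 ± 73 CPM (log2 fold change 0.98, edgeR adjusted p = 3.36e-07), and MT1F from 16.9 ± 2.52 to 30.1 ± 3.16 CPM (0.83, adjusted p = 1.48e-05; 0.50 with the GC trend removed). MT1E went from 377 ± 23 to 577 ± 63.3 CPM (0.61, adjusted p = 0.000105; 0.29 with the trend removed), and MT1X did not pass the threshold (0.34, adjusted p = 0.0985). All 4 were lower than WT in both mutants, where 20.9% (Mut_IDR3) and 25.0% (dIDR3) of all genes were lower. MT2A was at -0.94 (adjusted p = 9.17e-07) in Mut_IDR3 and -1.17 (adjusted p = 7.11e-08) in dIDR3. MT1X in Mut_IDR3 (-0.50, adjusted p = 0.0232) was not called with the trend removed (adjusted p = 0.0506). In either mutant against GFP edgeR called 0 of the 4, where 21.1% (Mut_IDR3) and 29.0% (dIDR3) of all genes were called. With the trend removed, however, MT1F (-0.33, adjusted p = 0.0239) and MT1X (-0.48, adjusted p = 0.0352) were called lower in dIDR3. These genes are close copies of each other, so their reads are uncertain.

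Of 20 selenoprotein genes besides GPX4, 13 were tested, and 7 rose and 2 fell with WT (69.2% called, against 54.9% of all genes). GPX1, a cytosolic glutathione peroxidase, rose from 475 ± 5.36 to 723 ± 38.5 CPM (0.60, adjusted p = 1.54e-07; 0.28 with the GC trend removed), the direction of GPX4.

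HBB, a globin gene listed as a red cell marker, had 137, 111 and 147 counts in the WT libraries (3.77, 3.29 and 3.55 CPM). It had 0, 0 and 4 counts with GFP, 0, 3 and 0 with Mut_IDR3, and 0 in each dIDR3 library.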
